A study of Mus musculus with 48 samples.

Results

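Alveolar epithelial type II cells (AECII) from C57Bl/6J mice that were given an extract of e-cigarette vapour whose liquid held 0 mg/ml nicotine were compared with control AECII. The members are 16 of the 48 arrays of the series, chosen by their titles: 8 of the group AECII.0mg and 8 of the group AECII.Ctrl. Both groups were primary cells in DMEM with L-glutamine, antibiotics and 10% serum, on 24-well plates. The treated group received 15% ECVE (the vapour extract) for 24 h, beginning 24 h after isolation, and is labelled with the treatment "smoke". The control group is labelled "room air", and no vehicle is given in the sources used here. The mice are described as 8 in number, the same strain supplied every group, and no genotype, age or sex was given in the sources used here. The series also holds AECII given extract of a liquid with 18 mg/ml nicotine and, in the same 3 conditions, pulmonary arterial smooth muscle cells (PASMC), with 8 arrays per group. Those were compared only at the end. The 8 AECII arrays with nicotine also entered the gene filter and the estimate of spread behind every standard error, interval and p value. All 48 arrays entered the choice of probe. The labels do not say which arrays of different groups came from the same mouse, nor whether a group's 8 arrays are 8 cultures, so all p values measure the spread between arrays.

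Type II cells are the cuboidal cells of the alveolus that make and recycle surfactant, and they are the progenitors of the flat type I cells that line most of the gas-exchange surface. In culture they are known to spread and to take on type I and transitional features. E-cigarette vapour carries carbonyl compounds and oxidants formed when the liquid is heated. Cells meet such electrophiles mainly through the transcription factor NRF2 (gene Nfe2l2). KEAP1 holds it for degradation until reactive compounds modify KEAP1, and the freed factor then binds antioxidant response elements in genes of glutathione conjugation, thiol repair, quinone reduction and NADPH supply. A parallel sensor, the aryl hydrocarbon receptor, answers planar aromatic compounds of combustion by inducing Cyp1a1 and Cyp1b1.

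No gene of AECII was called after nicotine-free extract (0 of 14477 genes, 0%, at an adjusted p under 0.05 in limma). Among 38 gene lists the largest median differences belonged to quinone, carbonyl and epoxide enzymes (0.12 on the log2 scale) and glutathione transferases (0.11). With genes of 2 related lists, 61 of 76 tested genes of glutathione conjugation, glutathione and thioredoxin cycling, quinone and carbonyl reduction and NADPH supply had a higher mean with extract, against 53% of all genes, with a median difference of 0.10. These lists were drawn up with the lean of NRF2 genes already known, and no list was tested. Other lists were as one-sided: 17 of 20 cholesterol synthesis and 15 of 18 type I genes were lower, and 24 of 31 respiratory chain genes higher. The medians of type II cell markers, cytokines and cytosolic heat shock genes lay between -0.02 and 0.01. The intervals were narrow enough to bound most differences: for 13430 genes (92.8%) the 95% interval lay within 1 log2 unit of 0.

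At an unadjusted p under 0.05 limma gave 480 genes (3.32%), where 724 (5%) are expected if no gene differs and arrays are independent. Of these, 237 (1.64%) were higher and 243 (1.68%) lower with extract. The differences of all genes had a median of 0.01 and ran from -0.33 at the 5th percentile to 0.32 at the 95th. In bulk samples such as these, fewer cells of a type and less RNA per cell cannot be told apart.

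How tightly a difference was bounded depended on how bright the gene was. Values are log2 intensities on a scale that ends at 15.89, with an array median of 2.97 to 2.98 over all features, and "near background" below means a level close to that median. For 4450 genes with a mean of up to 5 the median half-width of the 95% interval was 0.59, and for 3.71% of them the interval lay within 0.5 of 0. For 4572 genes from 5 to 8 the half-width was 0.32 and that share 65.2%. For 4027 genes from 8 to 11 it was 0.20 and 93.3%, and for 1428 genes above 11 it was 0.16 and 95.2%. Only 8 genes differed by more than 1, all with a mean of 5 or less. The share of genes at an unadjusted p under 0.05 declined along the same scale, from 5.62% in the dimmest class through 3.26% and 1.74% to 0.770% in the brightest.

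**Figure D1:**
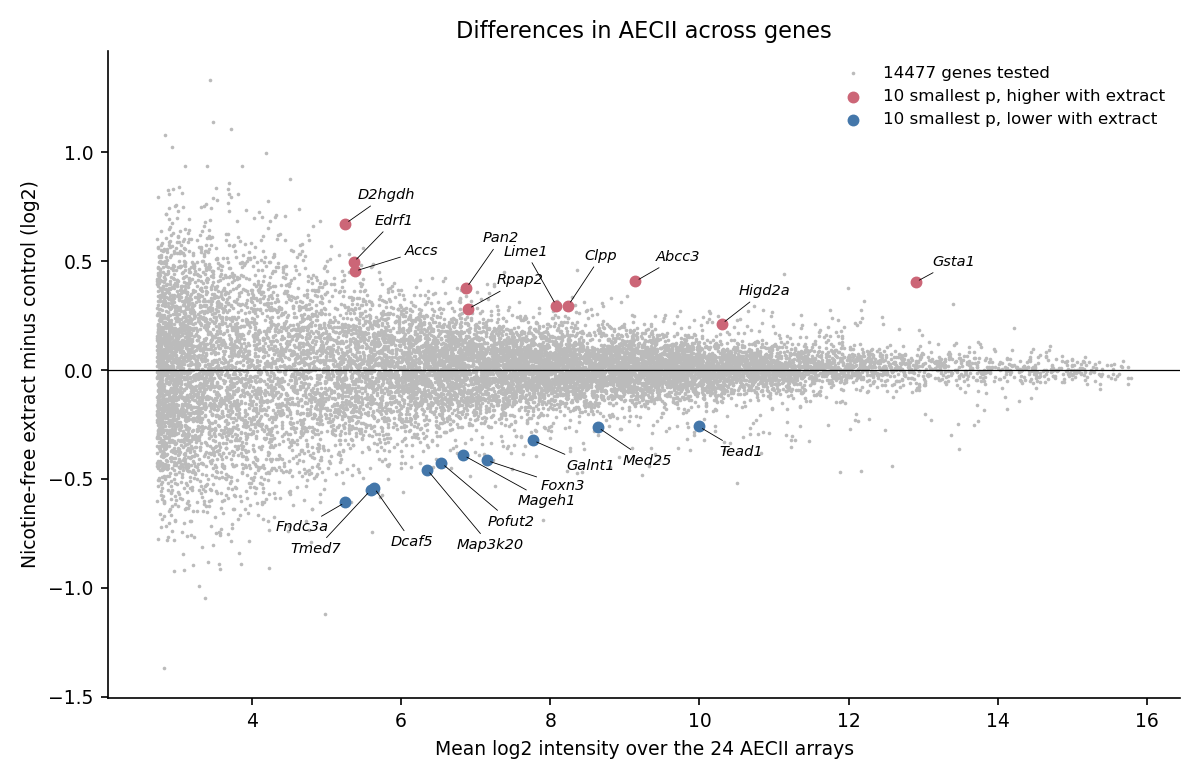
Difference between nicotine-free extract and control in AECII (log2, vertical axis) against the mean log2 intensity over the 24 AECII arrays (horizontal axis) for the 14477 genes tested, 1 point per gene. Named points are the 10 genes of each direction with the smallest p among genes with a mean above 5; the cloud narrows with intensity, and none of the named genes was called.

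The cultures carried a strong epithelial message. In control AECII the surfactant gene Sftpc stood at 14.33 ± 0.30 (SD, n = 8), the surfactant protease gene Ctsh at 14.41, Sftpd at 12.31, the lamellar body genes Lamp3 at 10.91 and Abca3 at 10.47, and 19 of 23 type II markers lay above 5. The phosphate carrier gene Slc34a2, another type II marker, lay near background at 2.63. Type I genes were also high (15 of 18 above 5; Pdpn and Aqp5 both 12.98), as were genes of the transitional state between type II and type I (all 15 above 5; Krt18 15.40, Krt19 14.94, Krt8 14.75). The club cell gene Scgb1a1 was near the end of the scale (15.73 ± 0.05), but it was the only 1 of 13 airway markers above 10. Of these 13, 8 lay above 5, among them Scgb3a1 (9.83) and Cyp2f2 (5.97), while Scgb3a2 (2.19) and Muc5b (3.00) lay near background.

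Genes of other cell types were present too. Mesothelial markers were above 5 in 8 of 8 cases, with Msln at 14.16, and 15 of 20 fibroblast and 14 of 18 contractile markers were above 5 (Acta2, smooth muscle actin, 11.71 ± 0.67). Of 26 macrophage markers 16 were above 5 (Lyz1 12.02, Ccl6 10.20), while the defining macrophage genes Adgre1 (3.12) and Cd68 (3.32) and the pan-leukocyte gene Ptprc (3.43) lay near background. Lymphocyte and neutrophil markers were mostly low (3 of 11 above 5), as were endothelial ones (6 of 14). The labelled cell type was thus matched by its surfactant genes, with markers of other cell types beside them. The mean level of a list differed little between the groups: macrophage markers ran from 5.91 to 7.72 in control and from 6.04 to 7.51 in treated arrays, contractile markers from 9.58 to 10.26 and from 9.51 to 10.06, fibroblast markers from 7.99 to 8.58 and from 7.97 to 8.60, and mesothelial markers from 8.72 to 9.91 and from 8.70 to 9.93.

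The genes that came first by p were small differences in genes of diverse function. Pan2, the catalytic subunit of a poly(A) shortening complex, ran from 6.52 through a median of 6.65 to 6.97 in control and from 6.75 through 7.05 to 7.50 in treated arrays. Its difference was 0.38 (SE 0.11, adjusted p = 0.999), with all 8 treated arrays above the control mean. The 2-hydroxyglutarate dehydrogenase gene D2hgdh differed by 0.67 (SE 0.19; 4.27, 4.71 and 5.45 against 4.88, 5.50 and 5.85), but by 0.27 when all its probes were averaged. The groups overlapped in both genes.

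The glutathione transferase gene Gsta1 and the exporter gene Abcc3, which carries glutathione and glucuronide conjugates out of the cell, were also among the 10 that led upward and are described with their families. The others were Accs (0.45), the RNA polymerase II phosphatase gene Rpap2 (0.28), the respiratory complex assembly gene Higd2a (0.21), Edrf1 (0.50), the mitochondrial protease gene Clpp (0.30) and the T-cell adaptor gene Lime1 (0.30). All 8 treated arrays lay above the control mean for Higd2a, Edrf1 and Clpp, and 7 of 8 for Accs, Rpap2 and Lime1.

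In the downward direction the smallest p of all belonged to Dcaf5, a substrate receptor of CUL4 ubiquitin ligases. It ran from 5.61 through 5.87 to 6.17 in control and from 4.81 through 5.49 to 5.62 in treated arrays, a difference of -0.54 (SE 0.12, 95% interval -0.78 to -0.30, adjusted p = 0.899). The highest treated value lay just above the lowest control. Pofut2, which adds fucose to thrombospondin repeats, was the only gene of the 14477 whose groups did not overlap (0.00691%). Its 8 controls lay between 6.61 and 6.95 and its 8 treated arrays between 5.89 and 6.57 (-0.43, SE 0.12, adjusted p = 0.999). The gap between the groups was smaller than the spread within either.

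The rest of the 10 leading downward were the stress kinase gene Map3k20 (-0.46), the mucin-type glycosyltransferase gene Galnt1 (-0.32), the forkhead gene Foxn3 (-0.41), the secretory cargo gene Tmed7 (-0.55), Tead1 (-0.26), which encodes a partner of YAP, the Mediator subunit gene Med25 (-0.26), Fndc3a (-0.61) and Mageh1 (-0.39). For these the adjusted p was 0.999 throughout. Treated arrays lay below the control mean in 8 of 8 cases except for Fndc3a and Mageh1 (7 of 8). None of the 20 leading genes in either direction changed sign under any alternative that was run.

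**Figure D2:**
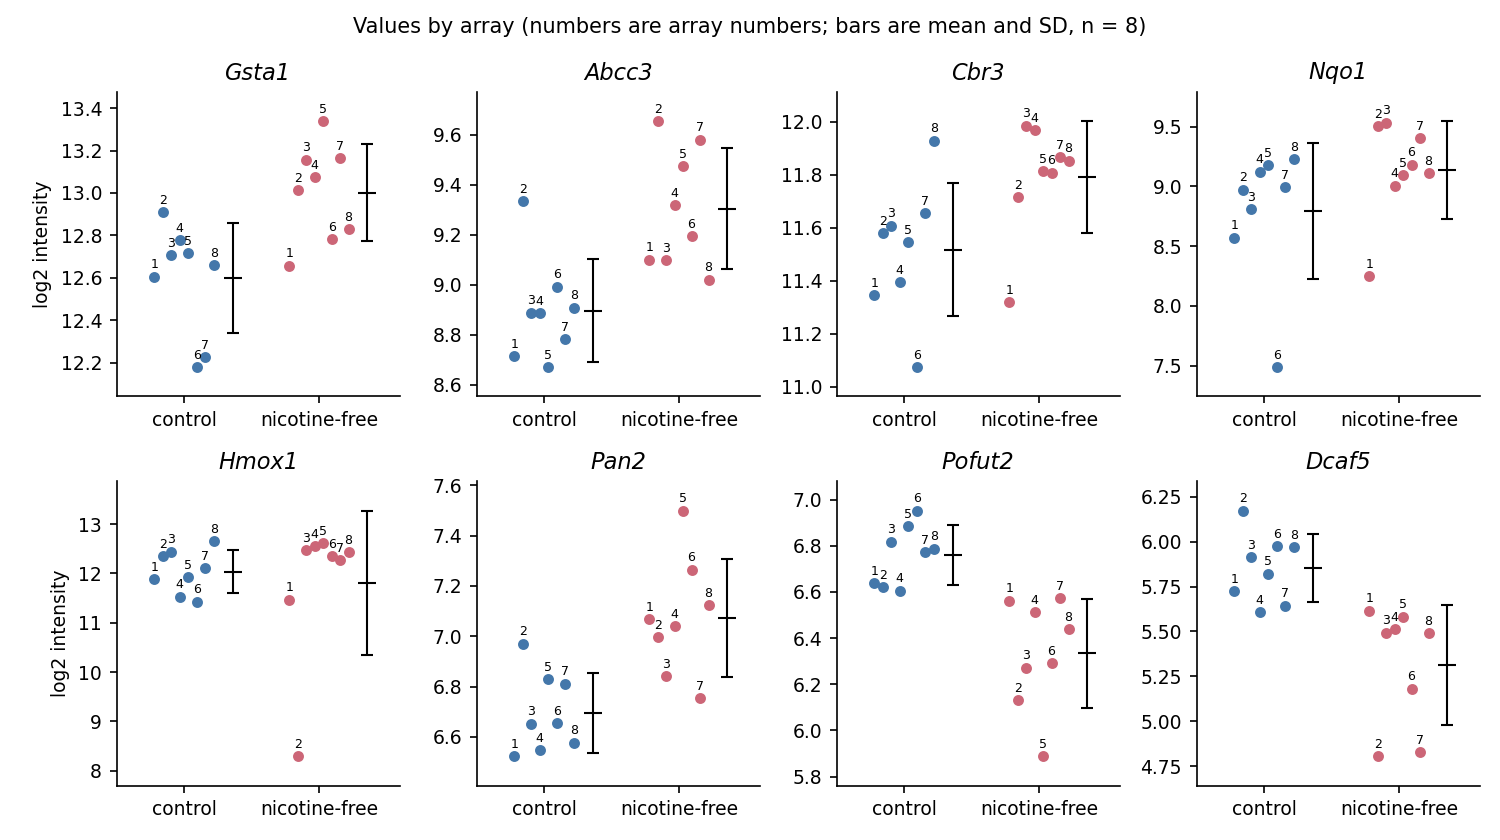
Log2 intensity of 8 genes in each AECII array; the numbers are array numbers within a group, and bars are mean and SD (n = 8). Gsta1 and Abcc3 lie higher and Dcaf5 and Pofut2 lower with extract, with overlap in all but Pofut2; for Nqo1 control array 6 (7.49) and treated array 1 (8.25), and for Hmox1 treated array 2 (8.29), lie far below the rest.

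Detoxification enzymes leaned upward as families, with few genes at a small p. Glutathione transferases, which join glutathione to electrophiles, had a higher mean in 17 of 23 genes (median 0.11; 2 genes at an unadjusted p under 0.05 higher and 1 lower). The genes of glutathione synthesis, peroxiredoxins and thioredoxins did so in 21 of 25 (median 0.08; 2 and 0), quinone, carbonyl and epoxide enzymes in 16 of 20 (median 0.12; 2 and 0), and NADPH-producing enzymes in 7 of 8 (median 0.08; 0 and 0). Over the 76 genes of the 4 lists 6 were higher and 1 lower at that p, where the shares over all genes are 1.64% and 1.68%, and none was called. The 6 include Ugt1a6a of the quinone list, a gene near background whose control mean lay below the filter level of 2.728. It was tested only through the arrays with extract. These lists were drawn up with the lean of NRF2 genes in these arrays already known, so their counts are a description.

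Of the transferases, Gsta1 conjugates lipid aldehydes. Controls ran from 12.18 through 12.68 to 12.91 and treated arrays from 12.66 through 13.04 to 13.34, a difference of 0.40 (SE 0.13, 95% interval 0.14 to 0.67, adjusted p = 0.999). All 8 treated arrays lay above the control mean, and the ranges overlapped. Its relatives Gsta2 (0.44, SE 0.24) and Gsta3 (0.22, SE 0.15), singled out after their values were seen, lay the same way, and so did the mu-class Gstm2 (0.16, SE 0.07, 7 of 8 arrays above the control mean). Gsto2, an omega-class enzyme that reduces dehydroascorbate, lay the other way (medians of 7.01 and 6.67; -0.24, SE 0.11, 7 of 8 arrays below). Near-identical members of the alpha and mu classes can share probe sequence, so which of them a probe reports is uncertain.

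In glutathione synthesis the catalytic ligase gene Gclc had all 8 treated arrays above the control mean. Controls ran from 10.45 through 10.73 to 11.42 and treated arrays from 10.82 through 10.98 to 11.63 (0.27, SE 0.17). The ligase modifier Gclm differed by 0.13 (SE 0.18), the synthetase Gss by 0.27 (SE 0.12; 8.26 ± 0.24 against 8.54 ± 0.23) and the cystine carrier Slc7a11 by 0.15 (SE 0.29). Glutathione reductase, Gsr, which restores the reduced form, differed by 0.16 (SE 0.07; 11.61 ± 0.15 against 11.78 ± 0.12). Sulfiredoxin, Srxn1, differed by 0.32 (SE 0.18), the epithelial peroxidase Gpx2 by 0.19 (SE 0.10), thioredoxin reductase Txnrd1 by 0.08 (SE 0.12) and peroxiredoxin Prdx1 by 0.11 (SE 0.12). All 9 were positive with groups that overlapped, and several were small without single arrays. Without treated array 4 Gclm differed by 0.03 and Slc7a11 by 0.06. Without control array 6 Gclm differed by 0.07, Slc7a11 by 0.07, Prdx1 by 0.03 and Txnrd1 by 0.03.

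Among carbonyl and quinone enzymes the carbonyl reductase gene Cbr3 ran from 11.07 through 11.56 to 11.93 in control and from 11.32 through 11.83 to 11.98 in treated arrays (0.28, SE 0.12). Treated array 1 was low, and the other 7 lay above the control mean. Cbr1 differed by 0.13 (SE 0.08). Nqo1, the quinone reductase most used as an NRF2 readout, ran from 7.49 through 8.98 to 9.23 in control and from 8.25 through 9.14 to 9.53 in treated arrays (0.34, SE 0.26). Its size rested on the lowest control: without control array 6 the difference was 0.15, without treated array 1 it was 0.47, and without both 0.28. The glucuronosyltransferase Ugt1a6a was near background (2.40 ± 0.27 against 2.96 ± 0.62). Its control mean lay below the filter level of 2.728, so it was tested only through the arrays with extract. In NADPH supply the pentose phosphate genes Pgls (0.21, SE 0.11), Pgd (0.16, SE 0.09) and Taldo1 (0.08, SE 0.06) were positive.

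The mean over the 20 quinone, carbonyl and epoxide genes was 8.30 ± 0.11 in control and 8.44 ± 0.08 in treated arrays (SD, n = 8). All 8 treated arrays exceeded the control mean, but treated array 1 did so narrowly (8.2986 against 8.29635). The list's largest difference (0.56) was that of Ugt1a6a, which passed the filter only through the arrays with extract. The count of 8 therefore rests in part on this gene. For glutathione transferases the mean was 8.95 ± 0.13 against 9.04 ± 0.09 (7 of 8 above), for glutathione synthesis and thioredoxin genes 10.12 ± 0.11 against 10.20 ± 0.10 (6 of 8) and for NADPH enzymes 9.89 ± 0.10 against 9.96 ± 0.11 (6 of 8). The ranges of both groups overlapped in each list. Over all 76 genes the mean was 9.26 ± 0.09 against 9.36 ± 0.07, a difference of 0.099 that became 0.0714 without control array 6 and 0.121 without treated array 1.

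The regulators of the response and its heme branch had smaller medians. NRF2 itself, Nfe2l2, differed by -0.04 (SE 0.11; 11.49 ± 0.19 against 11.45 ± 0.22) and its inhibitor Keap1 by -0.07 (SE 0.10), both named because they define the pathway. Of 15 regulators and exporters 10 were positive (median 0.02). Maff, a small partner of NRF2 on DNA, differed by 0.19 (SE 0.11) and the repressor Bach1 by 0.12 (SE 0.08). The exporter Abcc3 stood out in this list, from 8.67 through 8.89 to 9.34 in control and from 9.02 through 9.26 to 9.65 in treated arrays (0.41, SE 0.13, adjusted p = 0.999; all 8 treated arrays above the control mean). Heme and iron genes were positive in 11 of 16 (median 0.05). Heme oxygenase, Hmox1, was -0.23 (SE 0.44) only through treated array 2 at 8.29, since the other 7 lay between 11.47 and 12.61 and without it the difference was 0.27. The heme carrier Slc48a1 differed by 0.15 (SE 0.12; 0.06 without control array 6) and ferrochelatase, Fech, by -0.10 (SE 0.06).

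The core of the antioxidant response element, TGACNNNGC read on both strands, was searched in RefSeq promoter windows of GRCm38.p6 that run from 250 bases before to 50 after each start. It was found for 13 of the 70 genes of the 4 enzyme lists that have a window (18.6%), against 1903 of 11516 tested genes (16.5%) and 3781 of all 27025 genes with a window. The 150 bases before the start are shown for 4 of these enzymes, chosen because they hold a match and have their difference in the arrays given above. They show only where the letters match, and whether any match is bound was not tested. All are on the plus strand, and the match is in capitals.
Gclm, chr3:122245407-122245556: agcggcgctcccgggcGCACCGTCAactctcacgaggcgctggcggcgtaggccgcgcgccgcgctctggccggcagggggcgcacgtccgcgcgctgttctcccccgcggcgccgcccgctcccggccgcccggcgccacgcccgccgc
Gsta3, chr1:21240435-21240584: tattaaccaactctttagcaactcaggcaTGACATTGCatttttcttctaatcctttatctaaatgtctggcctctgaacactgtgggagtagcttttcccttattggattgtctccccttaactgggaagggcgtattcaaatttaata
Prdx1, chr4:116685449-116685598: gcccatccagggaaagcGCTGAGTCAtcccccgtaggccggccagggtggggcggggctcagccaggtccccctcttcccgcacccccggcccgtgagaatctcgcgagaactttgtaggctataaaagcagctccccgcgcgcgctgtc
Txnrd1, chr10:82859056-82859205: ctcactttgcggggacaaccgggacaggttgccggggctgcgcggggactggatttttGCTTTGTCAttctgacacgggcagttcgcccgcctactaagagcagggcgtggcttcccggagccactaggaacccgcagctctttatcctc
The match begins 134 bases before the start in Gclm, 121 in Gsta3, 133 in Prdx1 and 92 in Txnrd1. In Gsta3 it lies on the printed strand, and in the other three on the opposite strand. The windows of Nqo1, Gsta1, Cbr3, Slc7a11 and Gss held no match to these letters, and sequence further upstream was not searched. Of the 3 windows of Txnrd1 1 held a match, and Hmox1, Gclc, Abcc3 and Gsr had no window.

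**Figure D3:**
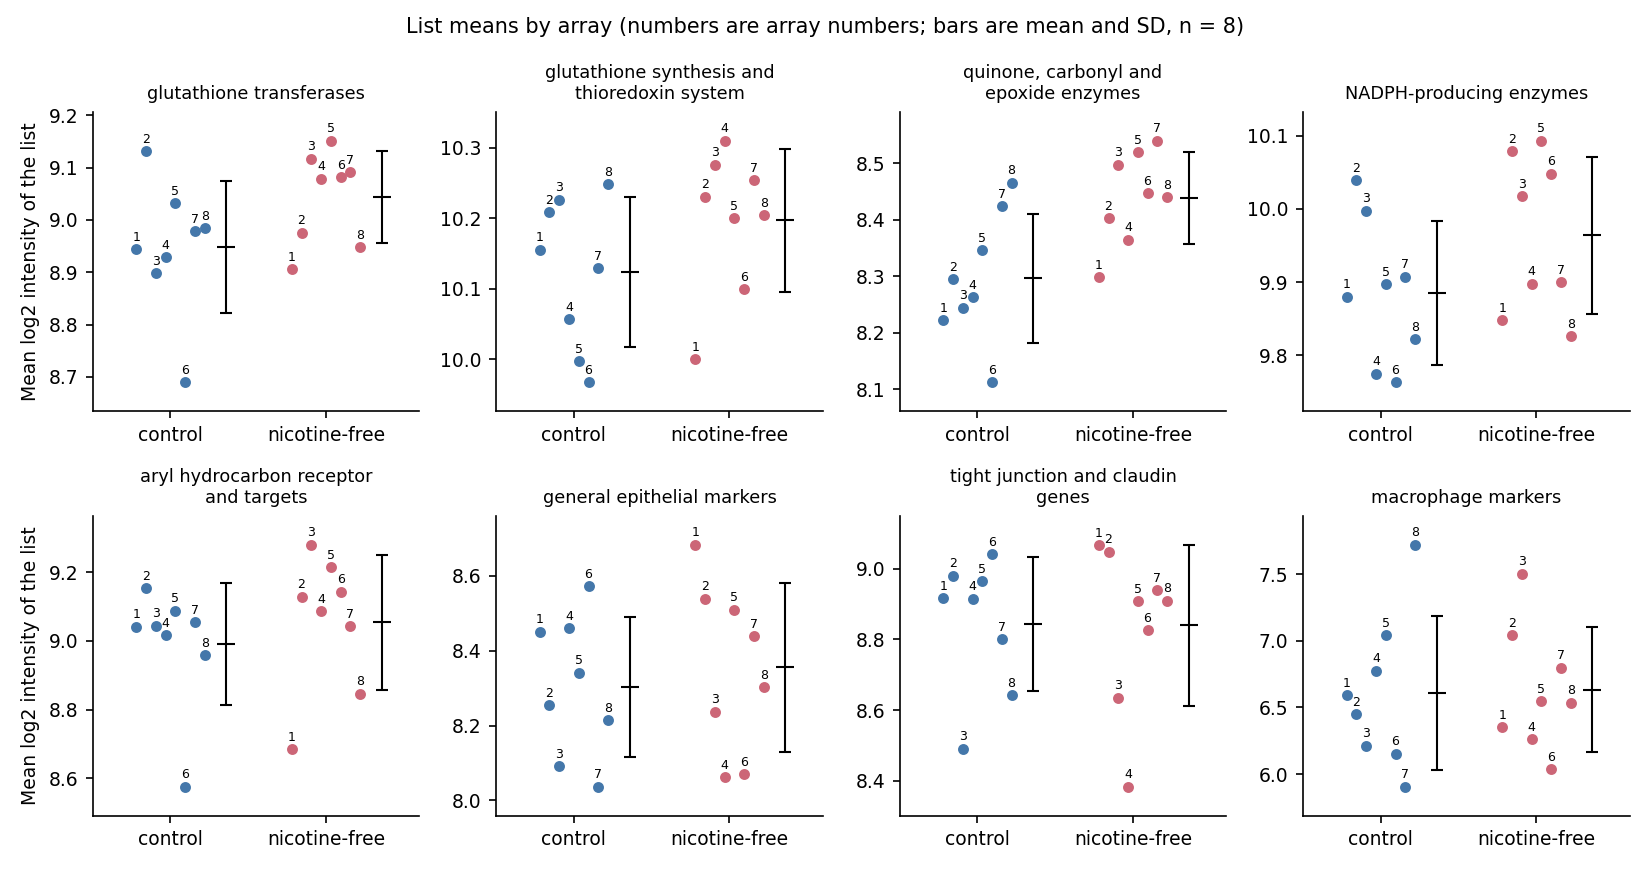
Mean log2 intensity of 8 gene lists in each AECII array; numbers are array numbers within a group, and bars are mean and SD (n = 8). In the 4 enzyme lists of the upper row the treated arrays lie slightly higher and control array 6 is lowest; tight junction genes are lowest in control array 3 and treated array 4, and macrophage genes highest in control array 8 and treated array 3.

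Aryl hydrocarbon receptor genes and targets were positive in 7 of 10 (median 0.04), against 53% of all genes, with 0 at an unadjusted p under 0.05 in limma. Cyp1a1, the most inducible of them, varied widely, from 7.15 through 8.67 to 9.64 in control and from 6.65 through 8.81 to 10.05 in treated arrays (0.03, SE 0.46, 95% interval -0.92 to 0.99). Cyp1b1 was tighter (11.64 ± 0.29 against 11.77 ± 0.29; 0.14, SE 0.13), as was the feedback gene Tiparp (0.15, SE 0.12). Aldehyde and alcohol dehydrogenases were positive in 17 of 25 (median 0.03). Among them Aldh3a1, which oxidises lipid aldehydes and is also a target of this receptor, differed by 0.27 (SE 0.17), Aldh3a2 by 0.17 (SE 0.10) and Aldh1a7 by 0.14 (SE 0.10). Aldh8a1 was the only one at an unadjusted p under 0.05, and it was dim (3.89 ± 0.55 against 3.14 ± 0.65; -0.75, SE 0.30).

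Nicotinic receptor subunits were mostly near background, and 7 of 16 could be tested. Chrna7 differed by 0.58 (SE 0.22, 95% interval 0.11 to 1.04) at levels of 3.30 ± 0.47 and 3.87 ± 0.45. The muscle-type subunit gene Chrnb1 was the clearly measured one (6.81 ± 0.32 against 6.72 ± 0.34; -0.09, SE 0.15).

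Surfactant and other type II genes had differences near 0. Surfactant protein C, Sftpc, ran from 13.80 through 14.42 to 14.65 in control and from 13.95 through 14.28 to 14.71 in treated arrays (-0.05, SE 0.14, 95% interval -0.35 to 0.25). Sftpb differed by 0.04 (SE 0.14), Sftpa1 by 0.01 (SE 0.24), the lipid transporter Abca3 by 0.03 (SE 0.10) and the lung transcription factor Nkx2-1 by 0.11 (SE 0.17). Of 21 type II markers 12 were positive (median 0.01), 0 at an unadjusted p under 0.05. The scavenger receptor gene Cd36 differed by 0.35 (SE 0.31; 0.12 without control array 3) and the lysosomal gene Dram1 by 0.20 (SE 0.17). The signs of Sftpa1, Sftpb and Abca3 turned when single arrays were left out.

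Of 18 type I markers 3 were positive (median -0.08), with 0 at that p. Cav2, a caveolin, was lower in 7 of 8 treated arrays than the control mean (9.37 ± 0.14 against 9.22 ± 0.15; -0.15, SE 0.10), and Vegfa, made by type I cells for the capillary bed, differed by -0.11 (SE 0.09; -0.05 without control array 2). The receptor Ager, the classical type I gene, differed by -0.05 (SE 0.35). The mean over this list was 8.97 ± 0.27 against 8.92 ± 0.27, and its sign depended on single arrays (-0.13 without control array 3 and 0.02 without treated array 4). Transitional genes were positive in 9 of 15 (median 0.01). Hbegf, an epidermal growth factor receptor ligand, was their only member at an unadjusted p under 0.05 (10.48 ± 0.15 against 10.27 ± 0.22; -0.21, SE 0.10), while the cornified envelope gene Sprr1a (0.16, SE 0.16) and the urokinase receptor Plaur (0.10, SE 0.09) lay the other way.

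The medians of junction and lineage lists lay between -0.04 and 0.06, but few intervals were narrow in the immune and vascular lists: 2 of 25 macrophage, 1 of 9 lymphocyte and neutrophil and 1 of 12 endothelial genes had a 95% interval within 0.5 of 0. Tight junction and claudin genes were positive in 12 of 18 (median 0.02), with Cldn3 at 0.15 (SE 0.11) and the dim plakoglobin gene Jup at -0.56 (SE 0.34; -0.32 without treated array 4). General epithelial genes were positive in 9 of 14 (median 0.06; Epcam 0.12, SE 0.22, but 0.02 without treated array 1), airway genes in 3 of 10 (median -0.04; Scgb1a1 0.01, SE 0.05, at the end of the scale) and mesothelial genes in 4 of 8 (median 0.00; Msln 0.09, SE 0.08; Muc16 0.23, SE 0.18). Contractile genes were positive in 7 of 15 (median 0.00; Acta2 0.05, SE 0.33), and fibroblast and matrix genes in 8 of 19 (median -0.02). In the latter Tcf21, a lipofibroblast transcription factor, was dim and lower (4.34 ± 0.47 against 3.56 ± 0.81; -0.79, SE 0.30), while Thy1 (0.41, SE 0.32) and Col3a1 (0.30, SE 0.27) lay higher. Macrophage genes were positive in 14 of 25 (median 0.02; Marco 0.06, SE 0.48; Csf1r -0.17, SE 0.18; Cd14 0.16, SE 0.15), lymphocyte genes in 4 of 9 and endothelial genes in 6 of 12.

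**Figure D4:**
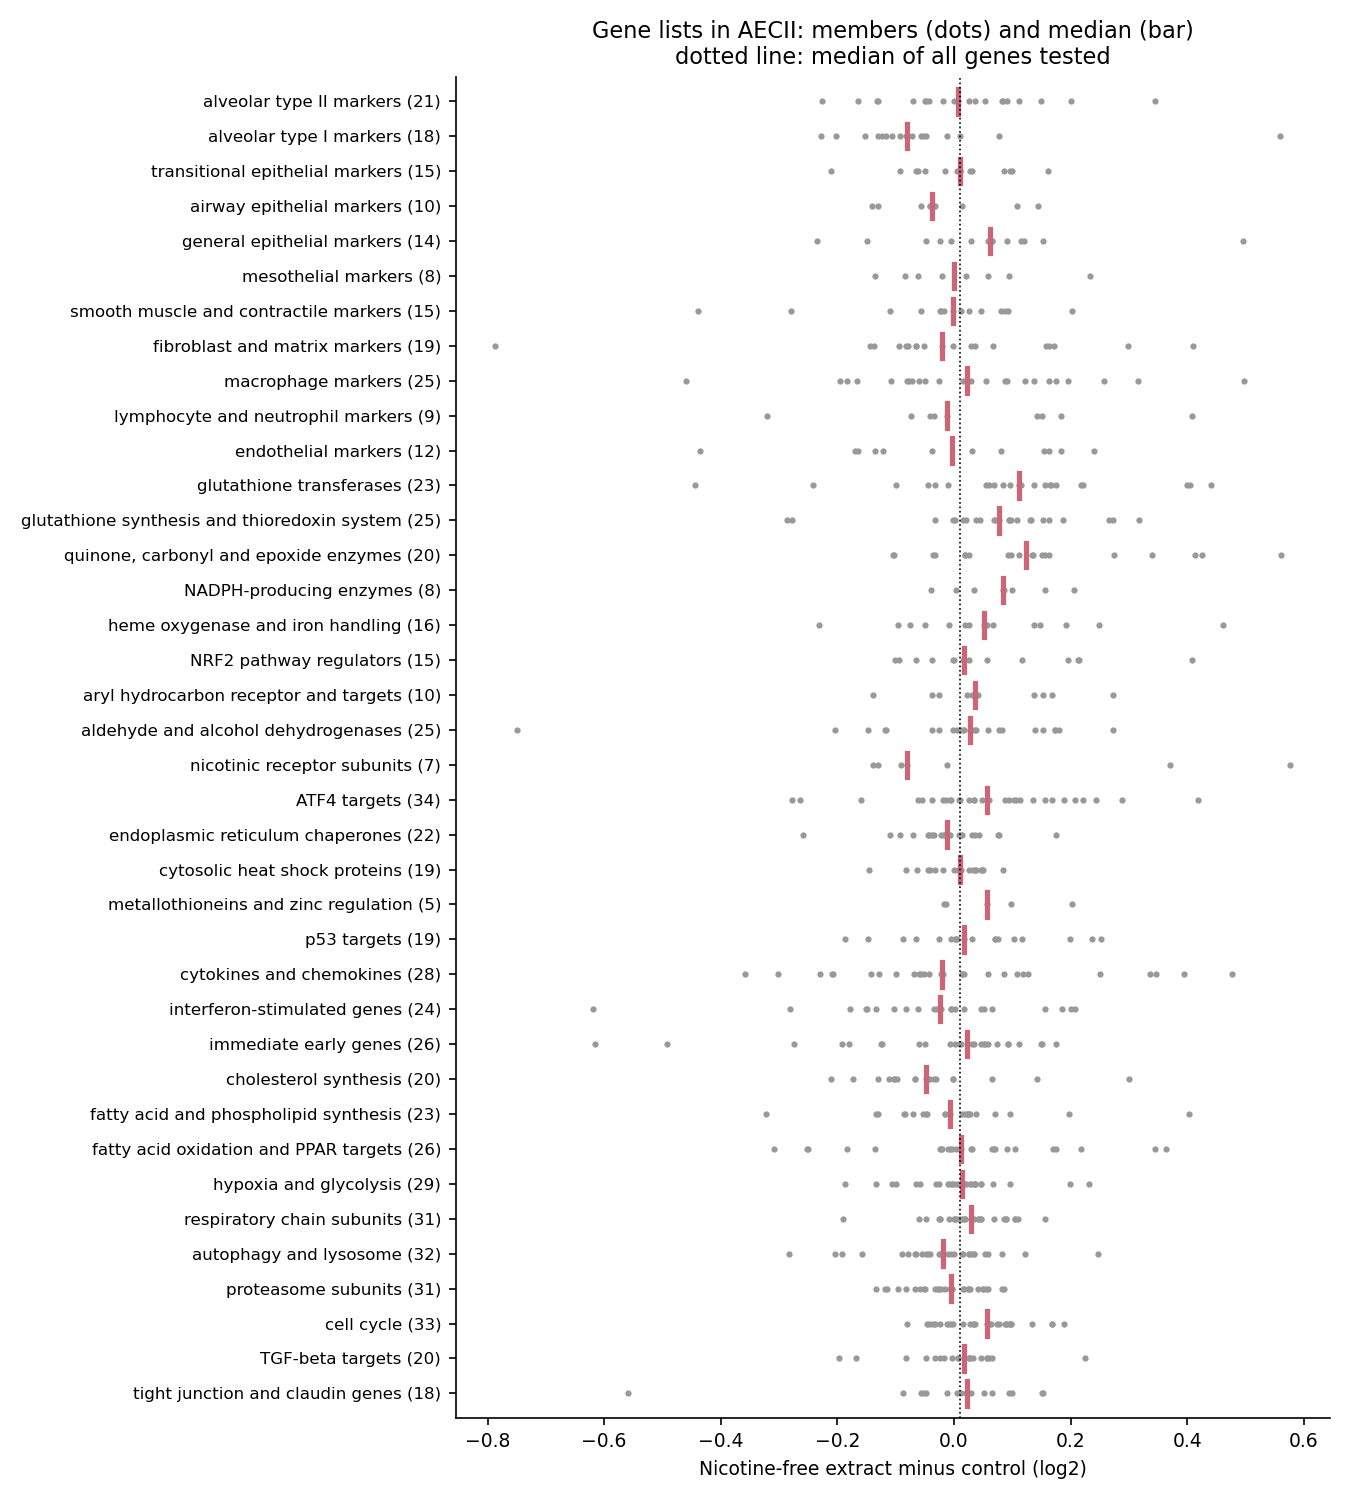
Difference between nicotine-free extract and control in AECII (log2) for the tested members of 38 gene lists; each dot is a gene, the bar is the list's median, the number in brackets is the number of genes tested, and the dotted line is the median of all genes (0.01). The medians of all lists lie between -0.08 and 0.12, highest for quinone, carbonyl and epoxide enzymes and for glutathione transferases.

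The integrated stress response, in which ATF4 raises amino acid supply and redox genes, had 24 of 34 genes positive (median 0.06, 1 higher at an unadjusted p under 0.05 and 0 lower). That gene was the cationic amino acid carrier Slc7a3 (5.49 ± 0.29 against 5.91 ± 0.48; 0.42, SE 0.19). The glycine carrier Slc6a9 differed by 0.24 (SE 0.14) and the folate enzyme Mthfd2 by 0.22 (SE 0.12), each with 7 of 8 treated arrays above the control mean. Sestrin 2, Sesn2, lay at -0.28 (SE 0.17) and the stress factor Ddit3 (CHOP) at 0.19 (SE 0.19). Some genes of this list are also NRF2 targets.

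Endoplasmic reticulum chaperones were positive in 9 of 22 (median -0.01). The disulfide isomerase Pdia3 was the exception, from 11.14 through 11.41 to 11.67 in control and from 10.84 through 11.21 to 11.50 in treated arrays (-0.26, SE 0.09, adjusted p = 0.999), and the calcium-binding chaperone Calr lay at 0.17 (SE 0.11). Cytosolic heat shock genes were positive in 12 of 19 (median 0.01), with the inducible Hspa1a at -0.15 (SE 0.14) and the constitutive Hspa8 at -0.08 (SE 0.07). All 19 had a 95% interval within 0.5 of 0. Proteasome subunits were positive in 12 of 31 (median -0.01; Psma4 -0.12, SE 0.07; Psmb1 -0.11, SE 0.07), and all 31 intervals also lay within 0.5 of 0. Autophagy and lysosome genes were positive in 13 of 32 (median -0.02), with 2 lower at an unadjusted p under 0.05 and 0 higher. These were the lysosomal cholesterol exporter Npc1 (6.66 ± 0.27 against 6.37 ± 0.22; -0.28, SE 0.12) and the phagophore protein gene Wipi2 (-0.20, SE 0.10, but -0.05 with the mean of all its probes), while Atg16l1 lay at 0.25 (SE 0.13).

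Inflammatory and damage readouts differed in direction between lists. Cytokine and chemokine genes were positive in 13 of 28 (median -0.02, 0 at an unadjusted p under 0.05). Il6 ran from 4.50 through 5.66 to 6.27 in control and from 4.94 through 5.49 to 5.98 in treated arrays (-0.21, SE 0.21), and the neutrophil chemokine Cxcl1 differed by 0.02 (SE 0.29). The monocyte chemokine Ccl7 lay at -0.36 (SE 0.19), the cytokine Lif at 0.35 (SE 0.21), the NF-kB inhibitor Nfkbia at -0.14 (SE 0.11) and, near background, Csf3 at 0.48 (SE 0.24). Interferon-stimulated genes were positive in 9 of 24 (median -0.02), with Bst2 at -0.15 (SE 0.10) and Ifit1, near background, at -0.62 (SE 0.31). Immediate early genes were positive in 16 of 26 (median 0.02; Srf 0.15, SE 0.08; Dusp5, dim, -0.62, SE 0.30). Targets of p53 were positive in 13 of 19 (median 0.02; Btg2 0.24, SE 0.13; Mdm2 0.10, SE 0.08). The metal-binding Mt1 (0.10, SE 0.14) and Mt2 (0.06, SE 0.16) were both bright.

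Of 20 cholesterol synthesis genes 3 were positive (median -0.05), with 0 at an unadjusted p under 0.05. The mean of this list differed by -0.0404, and by 0.00522 without treated array 3. Lanosterol synthase, Lss, lay at -0.21 (SE 0.12) and Hsd17b7 at -0.17 (SE 0.12), while Dhcr7, the last step of the pathway, lay at 0.30 (SE 0.18). Fatty acid and phospholipid synthesis was positive in 11 of 23 (median -0.01; the desaturase Fads2 -0.32, SE 0.21). Fatty acid oxidation was positive in 15 of 26 (median 0.01), with the peroxisomal Ehhadh at 0.36 (SE 0.19), the mitochondrial Acadl at 0.22 (SE 0.11) and Eci2 at 0.10 (SE 0.06). Hypoxia and glycolysis genes were positive in 17 of 29 (median 0.01; Hif1a -0.19, SE 0.13, but -0.09 without treated array 2 and -0.02 with the mean of all its probes). Respiratory chain subunits were positive in 24 of 31 (median 0.03) with all 31 intervals within 0.5 of 0 (Ndufa4 0.16, SE 0.09; Ndufa10 -0.19, SE 0.12, but -0.07 without treated array 2). Cell cycle genes were positive in 22 of 33 (median 0.06; Ccna2 0.19, SE 0.11; Cdc20 0.17, SE 0.10), and TGF-beta targets in 12 of 20 (median 0.02; Smad6 -0.20, SE 0.11). The mean of the cell cycle list differed by 0.046, and by -0.000259 without treated array 1. In this mean 3 treated arrays lay above the control mean and 5 below.

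Arrays differed from each other by more than the groups did. Over the tested genes, arrays correlated at 0.972 to 0.984 within the treated group, at 0.975 to 0.985 within the control group and at 0.971 to 0.987 between them. The median SD over genes was 0.29 in control and 0.31 in treated arrays, and the treated SD was the larger in 55.6% of genes. Among genes above 5 the residual SD of the fit, which also covers the 8 arrays with nicotine, was largest for Coq10a (1.34), which ran from 4.21 to 5.76 in these 16 arrays. It was next largest for the T-box gene Tbx22 (1.32), which ran from 7.34 to 10.09 in control and from 4.82 to 9.50 in treated arrays, highest in control array 3 and treated array 4 and lowest in treated arrays 1 and 2. The inhibitory receptor gene Cd300lf, the sialyltransferase gene St6galnac1, Gbp6, Tdgf1 and Syn3 were also highest in those arrays (control 3 and treated 4). The eosinophil-type ribonuclease Ear2, a macrophage marker of mouse lung, was highest in control array 8 (8.14) and treated array 3 (8.44). Some genes split by array number in both groups. Gm13430 was 5.38 and 4.07 in control arrays 7 and 8, 5.165 and 4.76 in treated arrays 7 and 8, and 7.17 to 7.79 in the rest. Gm8618 was 8.44 and 7.95, 8.27 and 7.65, and 10.30 to 10.99 in the same order. Gm15032 and Gm6003 were also lowest in arrays 7 and 8 of each group. So was the transferase gene Gsta2, by less (10.05 and 10.26 in control, 10.87 and 10.52 in treated arrays). The cause was not tested. The steadiest genes had means near the end of the scale, such as the ribosomal genes Rpl35, Rpl41, Rpl14 and Rps20, and Elk1 and Exosc2, whose differences lay between -0.07 and 0.04.

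Single arrays stood apart in whole families, in both groups alike. Control array 6 was the lowest control for 28 of the 76 enzyme genes (36.8%, against 13.1% of all genes), and treated array 1 was the lowest treated array for 26 of them (34.2%, against 13.3%). Control array 3 was lowest for 13 of 18 tight junction genes and 10 of 15 transitional genes, and treated array 4 for 13 of 18 and 7 of 15; of all genes these arrays were lowest for 18.2% and 16.5%. Type I genes were lowest in these same arrays in 9 of 18 cases each. Control array 8 was highest for 20 of 25 macrophage genes and treated array 3 for 15 of 25, against 18.0% and 12.8% of all genes. Without control array 6 and treated array 1 the enzyme mean differed by 0.0936, and without control array 3 and treated array 4 by 0.098. Control array 6 and treated array 1 were each the lowest of their group in this mean. Leaving out both therefore shifts both groups the same way and does not measure the part of either array. Left out singly, control array 6 gave 0.0714 and treated array 1 gave 0.121.

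Deviations from the group mean were shared between certain treated and control arrays. Across the 10027 genes above 5, treated array 1 correlated with control array 6 (r = 0.58), treated array 4 with control array 3 (0.55), treated array 6 with control array 7 (0.33), treated array 2 with control array 5 (0.32), treated array 5 with control array 2 (0.31) and treated array 7 with control array 4 (0.26), and in each of these 6 cases each array was the other's best match. The best matches of treated arrays 8 and 3 were control array 7 (0.27) and control array 8 (0.205), and the median over all pairs of arrays was -0.03. The best match never carried the same number (0 of 8), although 7 different controls were among the matches. Genes are not independent replicates and each control array can serve several matches, so this is a description with no test. The labels do not tie arrays to mice, and no pairing was made from it.

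**Figure D5:**
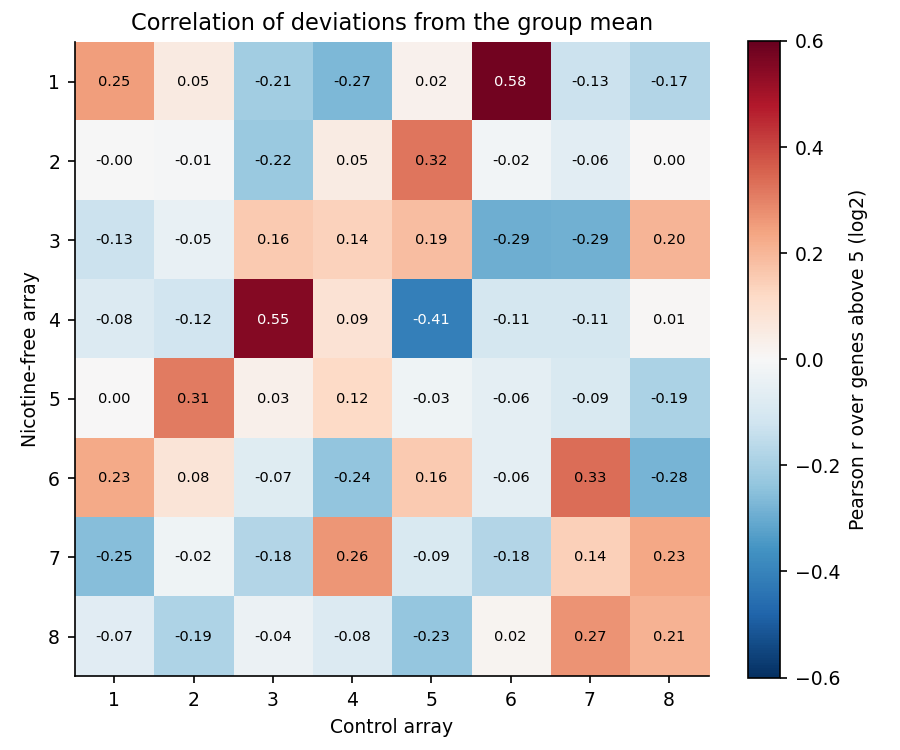
Pearson correlation, over the 10027 genes with a mean above 5 (log2), between the deviation of each nicotine-free array (rows) and of each control array (columns) from its group mean. Most of the 64 cells are near 0, the darkest red are treated array 1 with control array 6 (0.58) and treated array 4 with control array 3 (0.55), and the diagonal of equal numbers is not raised.

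Adding nicotine to the liquid gave no called gene relative to the nicotine-free extract (0 of 14477, 0%, in limma; 447 genes, 3.09%, at an unadjusted p under 0.05, of which 269, 1.86%, were higher and 178, 1.23%, lower). The comparison of the 18 mg/ml extract with control uses the same 8 controls, so its values are given side by side only: 0 genes called (0%) and 341 (2.36%) at an unadjusted p under 0.05, 206 higher (1.42%) and 135 lower (0.933%). Against control Gsta1 differed by 0.40 without and 0.50 with nicotine, Abcc3 by 0.41 and 0.33, Gclc by 0.27 and 0.26, Cbr3 by 0.28 and 0.44, Nqo1 by 0.34 and 0.36 and Srxn1 by 0.32 and 0.31. The median of the 76 enzyme genes was 0.10 without and 0.11 with nicotine. The 10 genes that led downward were all nearer to control with nicotine: Dcaf5 at -0.54 without and -0.11 with it, Pofut2 at -0.43 and -0.23, Map3k20 at -0.46 and -0.30, Galnt1 at -0.32 and -0.01, Foxn3 at -0.41 and -0.15, Tmed7 at -0.55 and -0.06, Tead1 at -0.26 and 0.05, Med25 at -0.26 and -0.15, Fndc3a at -0.61 and 0.06 and Mageh1 at -0.39 and -0.15. They were chosen for their low values without nicotine, so a smaller difference elsewhere has no test here.

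In PASMC, given the same extract, 0 of 14775 genes were called (0%) in limma, and 450 (3.05%) lay at an unadjusted p under 0.05, 185 higher (1.25%) and 265 lower (1.79%). The difference between the responses of AECII and PASMC was itself tested and gave 0 called genes (0%) and 393 (2.66%) at an unadjusted p under 0.05, 209 with the higher response in AECII (1.41%) and 184 with the lower (1.25%). Of 75 enzyme genes tested in both cell types 33 were positive in PASMC (median -0.01), beside 7289 of 14193 genes in all. Gsta1 differed by 0.40 in AECII and by -0.23 in PASMC, Gclc by 0.27 and -0.20, Cbr3 by 0.28 and -0.02, Abcc3 by 0.41 and 0.23 and Pan2 by 0.38 and 0.27. For none of these was the difference between cell types called.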

How the data were processed

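Total RNA for the 48 arrays was amplified, labelled with Cy3 and hybridised to single-colour arrays of 62976 features, per the labels. The deposited log2 values were used as they are. Their quartiles coincide over the arrays, as they do after quantile normalisation. Limma is named without a version in the submitters' processing notes, and background correction is not given in the sources used here. A total of 31465 features carry 1 gene symbol, 0 several and 31511 none here; names were updated through RefSeq accessions (29036 features), kept (2080) or matched by synonym (349). For the 20738 genes, 6171 of which had several features, the feature brightest on average over all 48 arrays was kept. Genes with a mean over the 24 AECII arrays above 2.728, the 30th percentile, were tested (14477). Of 28 missing values 3 lie in the 16 arrays compared, and such values were dropped from the fit.

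Fits used limma 3.58.1 (R 4.3.3; lmFit and eBayes, 1 coefficient per group, all 24 AECII arrays, or all 48 for the difference between cell types). Tests were two-sided, with p values adjusted by Benjamini and Hochberg over all genes tested and a threshold of 0.05. The procedure was tested on simulated data. These were drawn independently for each array, with changes of 1 log2 unit. The test therefore does not cover deviations shared between arrays or the smaller differences described here. Intervals are 95% intervals of the fit. No depth is behind an array value, and precision is limited by having 8 arrays in a group. Correlations of same-numbered arrays' deviations were -0.0219 to 0.113 over 8 pairs, so the numbers were not taken to pair arrays.

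Members and gene lists were chosen with earlier results of these data known, from general knowledge; a list is described by counts and medians only. Named genes are the 10 per direction with the smallest p among those with a mean above 5, every gene whose groups do not overlap, up to 4 members of each list by p, a set of readouts, and genes with the largest or smallest residual SD; markers named for their level, Gsta2, Gsta3, Prdx1, Nfe2l2 and Keap1 were added after their values were seen. Alternatives were other normalisations, filters, blocks, array sets, variance models, array weights, probe averaging, marker covariates and leaving out each array. Leaving out 2 pairs of arrays was added after seeing the data.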

Additional observations from a re-analysis of the deposited data

Results flagged for a closer look

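In 24 of 352 groups of 8 values examined (6.82%) the lowest or highest array lay apart, by Dixon's 95% criterion on its gap to the next array. Chance alone gives about 1 in 20 groups. No explanation was weighed.

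Low values in treated array 1 were found for Nqo1 (8.25, with the next array at 9.01), Cbr3 (11.3), Slc48a1 (10.7), Gsta3 (11.5), Prdx1 (13.3) and the chemokine Ccl7 (8.17). In control array 6 they were found for Nqo1 (7.49, next 8.57), Slc48a1 (10.5) and the mean of aryl hydrocarbon receptor targets (8.57). Treated array 1 was also high for the mesothelial gene Msln (14.5) and for the mean of nicotinic receptor subunits (4.59), which was low in control array 1 (3.18).

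Treated array 2 was low for Hmox1 (8.29, next 11.5), the stress factor Ddit3 (5.6) and the respiratory subunit Ndufa10 (9.08).

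Control array 3 was low for the forkhead gene Foxn3 (6.55) and the mean of transitional epithelial markers (12.2) and high for the fibroblast factor Tcf21 (5.32). Treated array 4 was low for the lung factor Nkx2-1 (7.82) and high for Exosc2 (15.6).

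Single values apart were Rpap2 in treated array 7 (6.62), Tead1 in control array 2 (9.77), Il6 in control array 7 (4.5) and, on the high side, the mean of immediate early genes in control array 8 (7.91).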

How the results depend on the processing

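No gene was called under any of the 14 alternatives or with any of the 16 arrays left out, by limma in each case. The count at an unadjusted p under 0.05 (480) was 779 with no filter on low values and 299 with a filter at the 50th percentile, which test more and fewer genes, and otherwise lay between 417 and 568; with an array left out it was 427 to 562. With the replicate block, the array number as a block, 0 genes were called and 531 lay under that p; the numbers were not found to pair arrays (0 of 8 treated arrays correlated best with their own number). Of 137 genes the sign held in 121. It turned for Ager with marker means as covariates (0.0217), for Cxcl1 without control array 3 and treated array 4 (-0.0651), for Cyp1a1 with array weights (-0.0224) and with covariates (-0.0447), for Gbp6 (0.0487), Sftpb (-0.144) and Tdgf1 (0.037) with the mean of all probes, for Hmox1 with array weights (0.0472), and for Sftpa1 under renewed quantile normalisation (-0.00187) and median centring (-0.00161); the cause was not tested. With an array left out the differences ranged from -0.0228 to 0.0888 for Abca3, -0.0853 to 0.195 for Acta2, -0.259 to 0.132 for Ager, -0.0986 to 0.183 for Cxcl1, -0.173 to 0.313 for Cyp1a1, -0.13 to 0.463 for Ear2, -0.347 to 0.27 for Hmox1, -0.107 to 0.00692 for Keap1, -0.244 to 0.33 for Marco, -0.0258 to 0.119 for Mt2, -0.0884 to 0.00387 for Nfe2l2, -0.00263 to 0.0371 for Scgb1a1, -0.11 to 0.0988 for Sftpa1 and -0.0364 to 0.081 for Sftpb. None of the 39 list means moved by more than the SD between arrays under any alternative run. Leaving out 1 array of 8 cannot pass that limit, so it does not show how steady the means are. With an array left out the mean difference ranged from -0.0491 to 0.0573 for type II, -0.13 to 0.0185 for type I and -0.0972 to 0.187 for macrophage markers. It ranged from -0.0723 to 0.00522 for cholesterol synthesis, and other lists turned sign too. For the 4 enzyme lists together it was 0.0714 to 0.121. The lowest adjusted p of a named gene under these alternatives was 0.091, for Dcaf5 with marker means as covariates (0.899 as reported). With nicotine against nicotine-free extract, and for the difference between cell types, 0 genes were called as reported and under the 3 alternatives run for each. Genes near background, with intervals of about 0.59 to either side, are those the arrays bound least.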
